A study of Mus musculus with 6 samples.

Results

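The glutathione genes examined were 10 of the 38924 rows of a gene expression table from mouse bone marrow. They were chosen by name for their place in the pathway: Gclc, Gclm and Gss make glutathione, Gsr recycles it, Gpx1 and Gpx4 spend it on peroxides, and Gstm1, Gstp1, Mgst1 and Mgst2 attach it to other molecules or reduce lipid peroxides with it. All 10 were found under these names, and all 10 reached the level required for testing. RNA was sequenced from C57BL/6 mouse marrow cells that had been sorted for GFP and for the progenitor receptor c-kit, and against markers of mature lineages. The cells came from mice given transplants of marrow transduced with GFP alone (mock, 4 weeks after transplantation) or with Evi1 and GFP, taken at 4 weeks (preleukemia) or at 6 months (leukemia), with 2 libraries in each group. Evi1 is a zinc-finger transcription factor encoded by Mecom and is overexpressed in aggressive myeloid leukemias. It was introduced by transduction, and the sort kept GFP-positive cells. Which promoter drove it, and how old the mice were, is not stated in the labels. No GFP group was taken at 6 months, so time and leukemia cannot be told apart in either comparison that includes the leukemia libraries.

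Glutathione is a tripeptide of glutamate, cysteine and glycine, and its cysteine thiol makes it the main soluble reductant of the cell. Glutamate-cysteine ligase, built from the catalytic subunit Gclc and the modifier subunit Gclm, carries out the rate-limiting step, and glutathione synthetase (Gss) adds glycine. Peroxidases oxidise glutathione to its disulfide, and glutathione reductase (Gsr) restores it with NADPH from the oxidative branch of the pentose phosphate pathway. Many of these genes are known targets of the transcription factor Nrf2 (Nfe2l2), which binds antioxidant response elements. In marrow, stem and progenitor cells are sensitive to oxidants, and granulocytes rely on the same cycle to withstand the oxidants that they make.

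Levels were in RPKM, reads scaled to the length of the transcript and to the depth of the library, which allows genes to be compared within a library. The libraries held 16921157 to 21639760 reads, as far as the steps among low values show, and 1 kb of transcript with 3 reads came to 0.139 to 0.177 RPKM, which covers counting error only. Mecom checked the labels: it was at 0.774 and 0.805 RPKM in the mock pair, 78.0 and 80.1 in the preleukemia pair and 61.7 and 71.5 in the leukemia pair. Reads of the construct and of the endogenous gene cannot be told apart in these values. Libraries of a group differed by a median of 0.22 on the log2 scale in mock, 0.11 in preleukemia and 0.11 in leukemia, so the mock pair was the least alike. All 10 listed genes of the sorted progenitor stage, Kit and Cd34 among them, were tested, and their summed levels were 4043 and 2990 RPKM in the mock pair, 5025 and 5312 in the preleukemia pair and 2198 and 2137 in the leukemia pair, with no overlap. Of these 10, 4 rose and 1 fell from mock to preleukemia, beside 13.5% and 6.02% of all genes tested. From mock to leukemia 1 rose and 4 fell, beside 12.1% and 13.5%. From preleukemia to leukemia 1 rose and 4 fell, beside 5.27% and 13%. Neutrophil markers, which the sort should leave low, had summed levels of 15.4 and 22.9 RPKM in the mock pair, 3927 and 8423 in the preleukemia pair and 469 and 772 in the leukemia pair. The labels do not tell whether a pair of libraries stems from different animals. If it does not, the p-values measure technical spread alone. In bulk RNA, fewer cells of a type and less RNA per cell cannot be told apart.

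Of the 10 genes, 5 changed between mock and preleukemia, with Gsr, Gpx1, Gstm1 and Mgst2 higher and Gclc lower. In that comparison 19.5% of the 10958 genes tested changed, 13.5% higher and 6.02% lower (limma's moderated test, adjusted p under 0.05). From mock to leukemia 4 changed, Gsr and Mgst2 higher and Gclc and Gstm1 lower, beside 25.6% of all genes (12.1% higher, 13.5% lower). From preleukemia to leukemia 4 fell, Gclm, Gsr, Gstm1 and Mgst1, and 0 rose, beside 18.3% of all genes (5.27% higher, 13% lower). At an unadjusted limma p under 0.05, 7, 6 and 7 of the 10 passed in the 3 comparisons. The share of all genes at that threshold was not computed, so these counts cannot be read as particular to the 10 genes. The counts called changed when single libraries were left out. A library outside the 2 groups compared leaves the fold as it is and acts through the estimate of the spread and its degrees of freedom alone. Without preleukemia library 1 or 2, 2 genes were called in preleukemia against mock. In leukemia against mock 1 was called without preleukemia library 1, and 2 without mock library 1, preleukemia library 2, leukemia library 1 or leukemia library 2. In leukemia against preleukemia 2 and 1 were called without preleukemia libraries 1 and 2. The median log2 fold change of the 10 genes was 0.65, -0.30 and -0.55 in that order, where the median of all genes tested was 0.05, -0.04 and -0.09. The libraries of the groups did not overlap for 7, 8 and 8 of the 10, against 62.7%, 65.4% and 70.7% of all genes. The comparisons share libraries: both against mock use the same mock pair, and both with preleukemia the same preleukemia pair. The neutrophil marker sums were also highest in preleukemia, and their part in the levels of the genes that were highest there was not tested.

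The share of calls over all genes that were higher in preleukemia than in mock was 69.2%, and 57.0% after scaling by a trimmed mean of log ratios or 52.9% after quantile normalization. From preleukemia to leukemia the share of higher calls was 28.8%, 44.3% and 50.8% under the same choices, and quantile normalization moved the median of all genes from -0.09 to 0.03. The counts of glutathione genes called, and their directions, were the same under all 3 scalings: 4 higher and 1 lower, then 2 and 2, then 0 and 4.

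**Figure D1:**
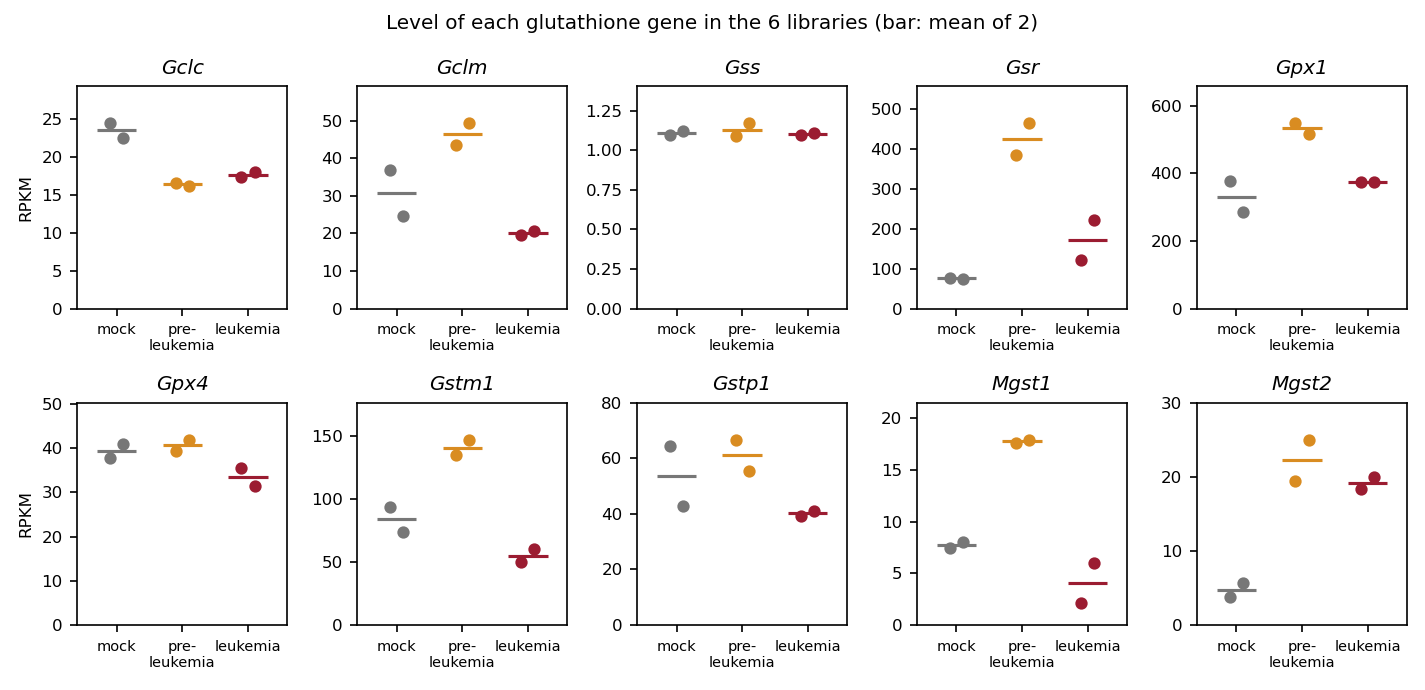
Level of each of the 10 glutathione genes in RPKM (linear axis from 0) in the 2 mock, 2 preleukemia and 2 leukemia libraries; points are libraries and bars the mean of 2. Gsr stood at 383 and 464 RPKM in preleukemia against 77.3 and 74.3 in mock, and Gss at 1.09 to 1.17 in all 6 libraries.

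**Figure D2:**
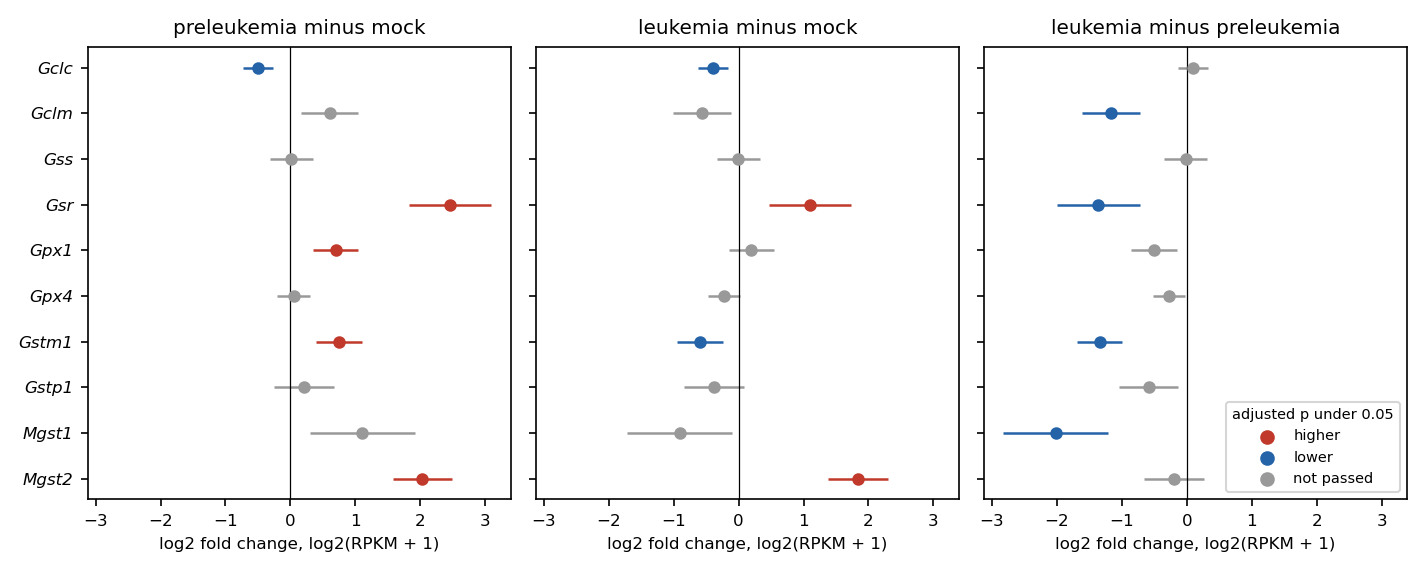
Log2 fold change on the log2(RPKM + 1) scale of each gene in the 3 comparisons, with the 95% interval of limma's fit; red and blue mark genes that passed as higher and lower, grey those that did not pass. Mgst2 lay near 2 in both comparisons with mock, and Mgst1, Gsr, Gstm1 and Gclm were lower in leukemia than in preleukemia.

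By level, Gpx1 was highest and Gss lowest of the 10 in every group mean. Gpx1 and Gsr together made up 62.0% to 62.7% of the summed RPKM of the 10 genes in the mock pair, and 72.9% to 75.1% in the other 4 libraries. The sum itself was 724 and 579 RPKM in the mock libraries, 1271 and 1335 in the preleukemia libraries and 677 and 796 in the leukemia libraries, so that preleukemia stood above both other groups and the latter overlapped. Neighbours in the order of mean level whose libraries overlapped were Gstm1 and Gsr in mock (93.9 and 74.1 against 77.3 and 74.3 RPKM) and Gclm and Mgst2 in leukemia (19.5 and 20.7 against 18.4 and 20.001 RPKM), and other neighbours in a group did not overlap.

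The promoters of these genes are shown where the searched motif was found, because the antioxidant response element is the known link between Nrf2 and this pathway. The core TGACNNNGC (N is any base) was searched on both strands of RefSeq windows from 250 bases before to 50 after the gene start (GRCm38.p6). Of the 10 genes, 8 had a window and Gclc and Gsr had none in the table used. The core was found in 2 of the 8, Gclm and Mgst1, or 25%, beside 17.2% of the 8098 tested genes with a window and 14.0% of all 27025 genes with one. The window of Gclm (chr3:122245307-122245606, plus strand) holds it with its first base 134 before the start. The first window of Mgst1 (chr6:138140277-138140576, plus strand) holds it 56 before the start of that window. That start lies inside the span of Mgst1 in GENCODE, which begins at 138140316, and so does the match. The second window of Mgst1 (chr6:138141337-138141636) had 0 matches. In each case the match is on the opposite strand, as TGACGGTGC in Gclm and TGACCGTGC in Mgst1, and the capitals mark it as read on the strand of the gene:
Gclm: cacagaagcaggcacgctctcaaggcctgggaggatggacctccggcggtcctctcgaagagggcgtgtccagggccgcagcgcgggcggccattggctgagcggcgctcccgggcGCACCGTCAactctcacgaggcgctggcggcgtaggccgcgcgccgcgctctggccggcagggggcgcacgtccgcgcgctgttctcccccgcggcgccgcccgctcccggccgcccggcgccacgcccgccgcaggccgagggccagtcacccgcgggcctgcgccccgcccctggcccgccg
Mgst1: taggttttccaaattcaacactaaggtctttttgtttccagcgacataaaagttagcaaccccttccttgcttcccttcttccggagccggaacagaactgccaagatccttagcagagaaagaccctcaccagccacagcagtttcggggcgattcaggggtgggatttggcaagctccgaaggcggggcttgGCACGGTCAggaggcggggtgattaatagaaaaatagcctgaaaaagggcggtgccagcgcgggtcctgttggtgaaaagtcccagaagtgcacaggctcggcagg
The match describes these letters only, and a window without it says nothing of the factor.

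Among the synthesis genes, the subunits of glutamate-cysteine ligase ordered the groups differently: Gclc was highest in mock and Gclm in preleukemia. Gclc, the catalytic subunit (chromosome 9, 77754535 to 77794485 of GRCm38, plus strand, protein coding), was at 24.5 and 22.6 RPKM in the mock pair, 16.6 and 16.3 in the preleukemia pair and 17.3 and 18.0 in the leukemia pair. Both mock libraries lay above all 4 Evi1 libraries. Gclc fell from 23.5 ± 1.36 RPKM (SD, n = 2) in mock to 16.4 ± 0.214 in preleukemia, a log2 fold change of -0.49 (SE 0.10, limma adjusted p = 0.0165), and to 17.7 ± 0.50 in leukemia (-0.39, adjusted p = 0.0272). Leukemia and preleukemia differed by 0.10 (95% interval -0.13 to 0.33, adjusted p = 0.513). The fall in preleukemia missed the threshold without preleukemia library 1 (-0.51, adjusted p = 0.10) or 2 (-0.48, adjusted p = 0.134). The fall in leukemia missed the threshold, with its fold unchanged at -0.39, without preleukemia library 1 (adjusted p = 0.0725) or 2 (adjusted p = 0.0724), and also without leukemia library 1 (-0.37, adjusted p = 0.157) or 2 (-0.42, adjusted p = 0.129). It ranged from -0.45 to -0.34 over the fits without a library. Mast cell and basophil markers were also highest in mock, with summed levels of 118 and 96.1 RPKM there, 37.5 and 31.1 in preleukemia and 19.1 in each leukemia library. Of the 7 tested, 5 fell in preleukemia and 7 in leukemia against mock, while Tpsb2 and Cma1 were listed at 0 in all 6 libraries. B-lymphoid markers were likewise highest in mock, at 41.3 and 43.7 RPKM in sum, against 17.9 and 19.6 in preleukemia and 12.5 and 11.9 in leukemia, and 5 of 6 tested fell and 1 rose in each Evi1 group. Their part in the level of Gclc was not tested.

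Gclm, the modifier subunit that raises the activity of the catalytic one (chromosome 3, 122245557 to 122270732, plus strand, protein coding), was at 37.0 and 24.6 RPKM in the mock pair, 43.6 and 49.4 in the preleukemia pair and 19.5 and 20.7 in the leukemia pair. The 3 groups did not overlap, with preleukemia highest and leukemia lowest. Gclm fell from 46.5 ± 4.10 RPKM in preleukemia to 20.1 ± 0.844 in leukemia (log2 fold change -1.17, SE 0.19, limma adjusted p = 0.00878). It missed the threshold without preleukemia library 2 (-1.08, adjusted p = 0.0797) or leukemia library 1 (-1.13, adjusted p = 0.0662). Against mock, at 30.8 ± 8.77 RPKM, neither difference passed: 0.60 in preleukemia (95% interval 0.16 to 1.05, adjusted p = 0.0654) and -0.57 in leukemia (-1.01 to -0.12, adjusted p = 0.0661). Both differences depended on which mock library was kept, as library 1 held 1.5 times the level of library 2. Without mock library 1 they were 0.89 in preleukemia and -0.28 in leukemia. Without mock library 2 they were 0.32 and -0.85. The ratio of Gclm to Gclc within a library, computed after the values were seen, was 1.51 and 1.09 in the mock libraries, 2.64 and 3.04 in the preleukemia libraries and 1.13 and 1.15 in the leukemia libraries. Of the 6291 exon bases of Gclm, 540 overlap exons of Gm17494 and Gm6061. Of its 50-base stretches 4.58% occur in transcripts of other genes, Ppia among them. Reads there cannot be assigned, so the level of Gclm and this ratio are uncertain to that extent.

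Gss, glutathione synthetase (chromosome 2, 155563181 to 155592810, minus strand, protein coding), was at 1.09 and 1.12 RPKM in the mock pair, 1.09 and 1.17 in the preleukemia pair and 1.09 and 1.11 in the leukemia pair. The libraries of all groups overlapped, and the 3 log2 differences were 0.01 (95% interval -0.32 to 0.35), -0.0040 (-0.34 to 0.33) and -0.02 (-0.35 to 0.31), with limma adjusted p from 0.943 to 0.986. Their signs turned after both other scalings. The values came to 109 to 150 reads a library on an exon length of 5915 bases in GENCODE M21. The intervals come from limma's estimate of the spread (SE 0.14 for each difference), and differences inside them could not be told from 0. Of those exon bases 1102 overlap exons of other genes, Acss2 and the antisense genes Gssos1 and Gssos2, and the kit named in the labels is not named as a stranded one, so reads there cannot be assigned.

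Gsr, the reductase that regenerates glutathione (chromosome 8, 33652523 to 33698163, plus strand, protein coding), had the largest log2 change of the 10 genes between mock and preleukemia. It was at 77.3 and 74.3 RPKM in the mock pair, 383 and 464 in the preleukemia pair and 120 and 222 in the leukemia pair. No library of one group overlapped another group, and the order was mock, leukemia, preleukemia. From 75.8 ± 2.07 RPKM in mock, Gsr rose 5.59-fold to 423 ± 56.9 in preleukemia (log2 fold change 2.46, SE 0.27, limma adjusted p = 0.00254), a call that held without any single library (2.3 to 2.6). It rose 2.26-fold to 171 ± 72.0 in leukemia (1.10, adjusted p = 0.0263) and fell by 1.36 on the log2 scale from preleukemia to leukemia (adjusted p = 0.0172).

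The leukemia pair differed for Gsr, with library 2 well above library 1. The rise over mock was 0.66 without leukemia library 2 (adjusted p = 0.0593), and it missed the threshold without mock library 1 (1.13, adjusted p = 0.0563), mock library 2 (1.07, adjusted p = 0.0722) or, with its fold unchanged, preleukemia library 1 (adjusted p = 0.0501). The fall from preleukemia missed the threshold without preleukemia library 1 (-1.5, adjusted p = 0.0643) or 2 (-1.22, adjusted p = 0.123).

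The summed neutrophil markers had the order of Gsr, lowest in mock and highest in preleukemia, and so had the group means of 10 of the 12 genes. Padi4 instead was highest in leukemia (means of 4.81, 48.4 and 56.2 RPKM in mock, preleukemia and leukemia) and Mmp8 lowest there (1.05, 1.503 and 0.0415 RPKM). In preleukemia 9 of 12 listed markers rose, 0 fell and 3 did not pass, and from preleukemia to leukemia 8 of 12 fell and 4 did not pass. Itgb2l was listed at 0 in both mock libraries, and no other listed neutrophil gene was at 0 in both libraries of a group. Leukemia library 2, the higher for Gsr, had summed levels of 772 RPKM for neutrophil and 171 for eosinophil markers, against 469 and 3.74 in library 1. For the eosinophil list, 3 of 7 genes were tested and 0 passed between leukemia and mock, while Ear1 and Ear2 were listed at 0 in both leukemia libraries. The part of these cells in the level of Gsr was not tested.

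**Figure D3:**
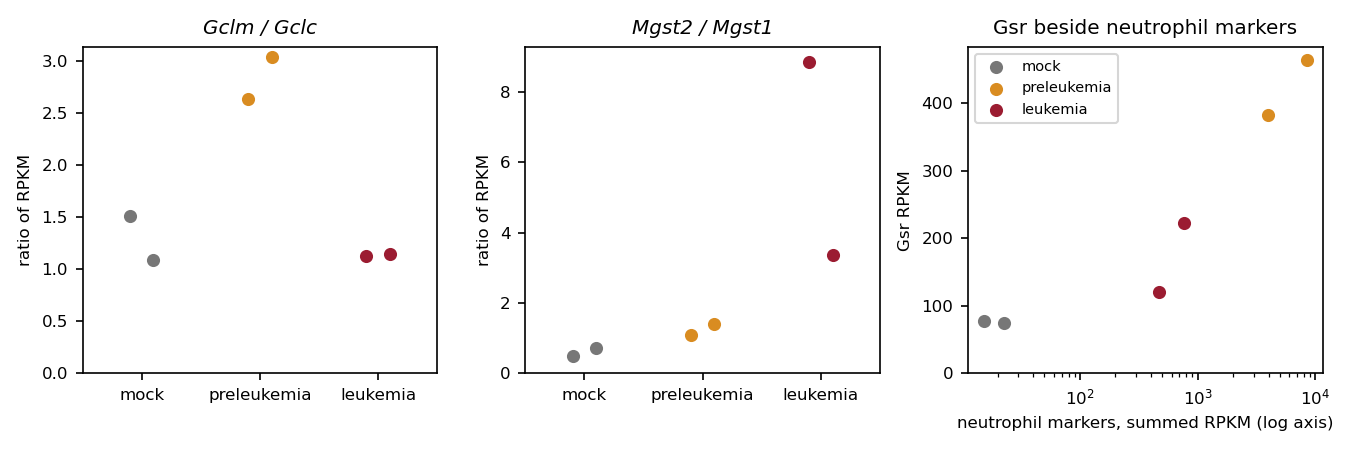
Left and centre, the ratio of RPKM of Gclm to Gclc and of Mgst2 to Mgst1 in each library (linear axes from 0); right, Gsr in RPKM against the summed RPKM of 12 neutrophil markers (log axis), 1 point per library, coloured by group. The Gclm to Gclc ratio was 2.64 and 3.04 in preleukemia and at most 1.51 elsewhere, and Gsr was lowest in the mock libraries, where the markers summed to 15.4 and 22.9 RPKM.

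Gpx1, the abundant selenium-dependent peroxidase of the cytosol (chromosome 9, 108338903 to 108340343, plus strand, protein coding), was at 377 and 285 RPKM in the mock libraries, 548 and 516 in the preleukemia libraries and 374 and 375 in the leukemia libraries. Both preleukemia libraries lay above all others, and the leukemia libraries lay inside the range of mock. Gpx1 rose from a mock mean of 331 ± 64.9 RPKM to 532 ± 22.6 in preleukemia (log2 fold change 0.70, SE 0.15, limma adjusted p = 0.0206). The rise missed the threshold without preleukemia library 1 (0.66, adjusted p = 0.112) or 2 (0.74, adjusted p = 0.104), or with no filter on low values (adjusted p = 0.0841). Leukemia, at 374 ± 1.06 RPKM, differed from mock by 0.19 (95% interval -0.16 to 0.54, adjusted p = 0.365) and from preleukemia by -0.51 (adjusted p = 0.0567). The latter passed without mock library 1 (adjusted p = 0.0160) or 2 (adjusted p = 0.0166), which enter that comparison through the estimate of the spread alone. Mock library 1, the higher for Gpx1, had a summed level of 376 RPKM over 11 erythroid markers against 159 in mock library 2. In preleukemia 2 of the 9 tested erythroid markers rose and 0 fell, with summed levels of 255 and 164 RPKM, and Alas2 was listed at 0 in both libraries. The part of erythroid cells in the level of Gpx1 was not tested.

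Gpx4, the peroxidase that acts on phospholipid hydroperoxides in membranes and restrains ferroptosis (chromosome 10, 80047166 to 80056439, plus strand, protein coding), was at 37.8 and 40.8 RPKM in the mock pair, 39.5 and 41.9 in the preleukemia pair and 35.6 and 31.4 in the leukemia pair. Mock and preleukemia overlapped, and both leukemia libraries lay below the other 4. No difference passed: 0.05 in preleukemia against mock (95% interval -0.20 to 0.30, limma adjusted p = 0.771; its sign turned after both other scalings), -0.23 in leukemia against mock (-0.48 to 0.02, adjusted p = 0.157) and -0.27 in leukemia against preleukemia (-0.53 to -0.02, adjusted p = 0.120). Of the 50-base stretches in its transcripts 34.7% also occur in the pseudogene Gpx4-ps2, so its level is uncertain where counting could split them. Of 6 tested genes for the incorporation of selenocysteine, which both peroxidases need, 0 passed in any comparison by limma's adjusted p, and the summed level of that list was 74.4 to 88.7 RPKM in the 6 libraries.

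Among the transferases, Gstm1, a cytosolic mu-class enzyme that conjugates glutathione to electrophiles (chromosome 3, 108012255 to 108017973, minus strand, protein coding), passed in all 3 comparisons. It was at 93.9 and 74.1 RPKM in the mock pair, 135 and 147 in the preleukemia pair and 50.1 and 60.1 in the leukemia pair, with no overlap between groups. Gstm1 rose from a mock mean of 84.0 ± 14.0 RPKM to 141 ± 8.92 in preleukemia (log2 fold change 0.75, SE 0.15, limma adjusted p = 0.0170) and then was lower, at 55.1 ± 7.07 in leukemia, than in preleukemia (-1.34, adjusted p = 0.00297) and than in mock (-0.60, adjusted p = 0.0282). The fall from preleukemia to leukemia held without any single library (-1.47 to -1.22). The rise missed the threshold without preleukemia library 1 (0.81, adjusted p = 0.0732) or 2 (0.68, adjusted p = 0.128), or with no filter on low values (adjusted p = 0.0557). The difference between leukemia and mock passed only in the fit without mock library 2 among those that left out a library, and was -0.43 without mock library 1 (adjusted p = 0.0571), unchanged at -0.60 without preleukemia library 1 or 2 (adjusted p = 0.0589 in each), -0.47 without leukemia library 1 (adjusted p = 0.155) and -0.72 without leukemia library 2 (adjusted p = 0.0605). Of its 50-base stretches 18.9% occur in transcripts of other genes, mainly Gstm2-ps1 and Gstm3. Gstm3 was at 0 to 0.0848 RPKM in the 6 libraries.

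Gstp1, the pi-class transferase (chromosome 19, 4035407 to 4037985, minus strand, protein coding), was at 64.5 and 43.0 RPKM in the mock libraries, 66.7 and 55.6 in the preleukemia libraries and 39.2 and 41.1 in the leukemia libraries. Mock and preleukemia overlapped, and leukemia was lowest. No difference passed: 0.21 in preleukemia against mock (95% interval -0.25 to 0.67, limma adjusted p = 0.482), -0.38 in leukemia against mock (-0.84 to 0.08, adjusted p = 0.186) and -0.59 in leukemia against preleukemia (-1.05 to -0.13, adjusted p = 0.0799). The first 2 differences depended on which mock library was kept. Without mock library 1 the first was 0.49 and the second -0.10. Without mock library 2 they were -0.08 and -0.67. The third passed without mock library 1 (adjusted p = 0.0121) or 2 (adjusted p = 0.0121). Gstp1 shares 33.7% of its 50-base stretches with its neighbour Gstp2, which was at 0 to 0.157 RPKM, so the counting could move reads between them.

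The microsomal enzymes Mgst1 and Mgst2, membrane proteins with transferase and peroxidase activity, both had all preleukemia libraries above the mock ones, and in leukemia Mgst2 lay above mock and Mgst1 below it. Mgst2 (chromosome 3, 51660360 to 51682677, plus strand, protein coding), which can also make leukotriene C4, was at 3.76 and 5.69 RPKM in the mock pair, 19.5 and 25.1 in the preleukemia pair and 18.4 and 20.001 in the leukemia pair. All 4 Evi1 libraries lay above both mock libraries, and preleukemia and leukemia overlapped. Mgst2 rose 4.72-fold from 4.72 ± 1.37 RPKM to 22.3 ± 3.99 in preleukemia (log2 fold change 2.03, SE 0.19, limma adjusted p = 0.00151) and 4.07-fold to 19.2 ± 1.12 in leukemia (1.84, adjusted p = 0.00154). Both calls held without any single library (1.79 to 2.28 and 1.59 to 2.09), and leukemia differed from preleukemia by -0.19 (95% interval -0.65 to 0.27, adjusted p = 0.529). Monocyte and macrophage markers summed to 228 and 313 RPKM in the mock pair, 421 and 381 in the preleukemia pair and 556 and 580 in the leukemia pair. Against mock 3 of 8 tested rose and 2 fell in preleukemia, and 4 rose and 1 fell in leukemia, with C1qa listed at 0 in both leukemia libraries. Their part in the level of Mgst2 was not tested.

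Mgst1, which is found in the endoplasmic reticulum and the outer mitochondrial membrane (chromosome 6, 138140316 to 138156755, plus strand, protein coding), was at 7.42 and 7.99 RPKM in the mock pair, 17.6 and 17.9 in the preleukemia pair and 2.08 and 5.97 in the leukemia pair. The groups did not overlap, and leukemia was lowest. Mgst1 fell from 17.8 ± 0.202 RPKM in preleukemia to 4.02 ± 2.75 in leukemia (log2 fold change -2.02, SE 0.34, limma adjusted p = 0.0105), which missed the threshold without preleukemia library 1 (-2.03, adjusted p = 0.0617) or 2 (-2.01, adjusted p = 0.0793), or with no filter on low values (adjusted p = 0.0503). Against mock, at 7.71 ± 0.400 RPKM, neither difference passed: 1.11 in preleukemia (95% interval 0.30 to 1.92, adjusted p = 0.0639) and -0.91 in leukemia (-1.72 to -0.10, adjusted p = 0.0935). The spread of the leukemia pair entered both. The preleukemia difference passed in a fit of the 4 libraries compared (limma adjusted p = 0.00578). The leukemia difference depended on which leukemia library was kept. It was -1.5 without leukemia library 2 and -0.32 without leukemia library 1. The implied reads of Mgst1 in leukemia were 88 and 236, and library 2, the higher, is also the one with the larger neutrophil and eosinophil sums given above, whose part was not tested. The ratio of Mgst2 to Mgst1, computed after the values were seen, was 0.506 and 0.713 in the mock libraries, 1.10 and 1.40 in the preleukemia libraries and 8.85 and 3.35 in the leukemia libraries.

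The rest of the pathway was taken from lists of other transferases, other peroxidases with glutaredoxins and glyoxalases, cysteine supply and turnover, Nrf2 with its other targets, and selenocysteine incorporation. Of 74 genes with a row, 48 were tested. From mock to preleukemia 10 of the 48 rose, 2 fell and 36 did not pass, with a median log2 fold change of 0.18, beside 13.5% higher, 6.02% lower and a median of 0.05 over all genes. From mock to leukemia 7 rose, 8 fell and 33 did not pass, and the median was -0.16, beside 12.1%, 13.5% and -0.04 over all genes, so that these counts lay near the share of all genes. From preleukemia to leukemia 3 rose, 16 fell and 29 did not pass, and the median was -0.23, beside 5.27%, 13% and -0.09. The counts called changed when single libraries were left out: they were 22 without mock library 1, 6 without preleukemia library 1 and 4 without preleukemia library 2 in the first comparison, and 7 without leukemia library 1 and 6 without leukemia library 2 in the second. In the third they were 8 and 5 without preleukemia libraries 1 and 2, and 4 and 10 without leukemia libraries 1 and 2.

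**Figure D4:**
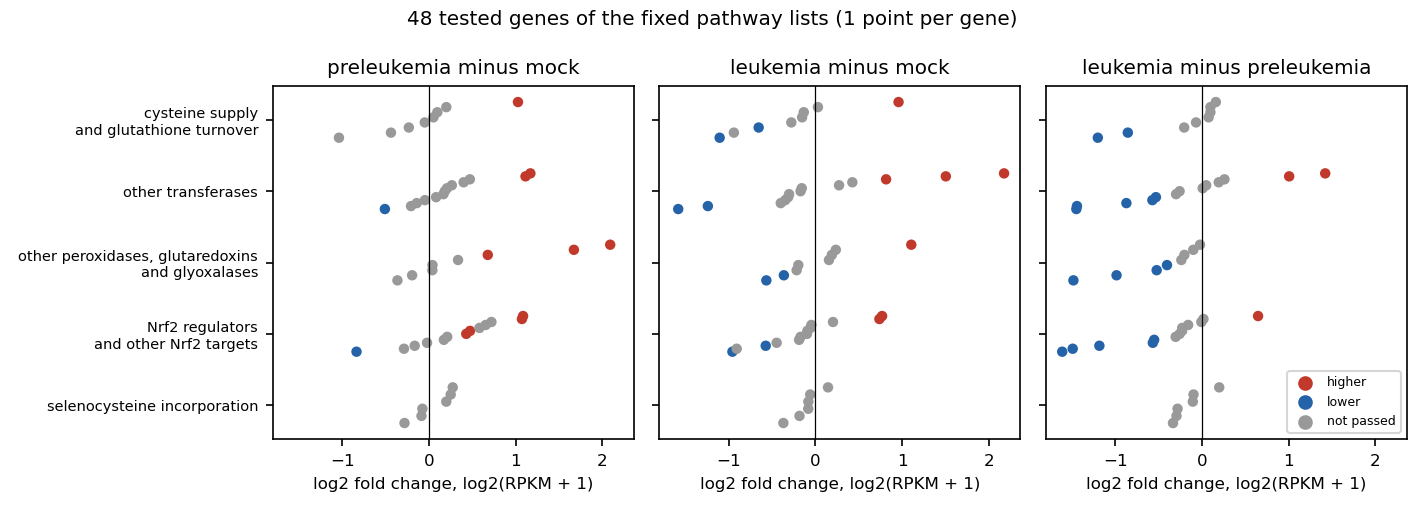
Log2 fold changes on the log2(RPKM + 1) scale of the 48 tested genes of the 5 other pathway lists, 1 point per gene, in the 3 comparisons; red and blue mark genes that passed as higher and lower. From preleukemia to leukemia 16 points are blue and 3 red, and the 6 selenocysteine genes are grey in all 3.

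Among peroxidases and glutaredoxins, Glrx, a glutaredoxin that removes glutathione from protein thiols, was at 23.8 and 19.5 RPKM in the mock pair, 88.5 and 102 in the preleukemia pair and 44.9 and 50.3 in the leukemia pair. Its groups had the same order as those of Gsr and did not overlap. Glrx rose by 2.09 on the log2 scale in preleukemia (SE 0.13, limma adjusted p = 0.000519). Gpx3, the secreted plasma peroxidase, was at 1.79 and 1.91 RPKM in the mock pair, 7.53 and 8.64 in the preleukemia pair and 1.92 and 2.61 in the leukemia pair. It rose by 1.67 in preleukemia (adjusted p = 0.00141) and fell by 1.48 from there to leukemia (adjusted p = 0.00264).

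Other transferases went in both directions. Gsta4, an alpha-class enzyme that conjugates the lipid aldehyde hydroxynonenal, was at 1.55 and 1.09 RPKM in the mock libraries, 4.75 and 3.67 in the preleukemia libraries and 10.2 and 8.67 in the leukemia libraries. It rose by 1.17 in preleukemia (limma adjusted p = 0.00666; 1.02 and adjusted p = 0.0507 without preleukemia library 1) and by 2.17 in leukemia (adjusted p = 0.000623), both against mock. Gstt3, of the theta class, rose from 1.00 ± 0.151 to 3.36 ± 0.675 RPKM in preleukemia (1.11, adjusted p = 0.00669), but not without preleukemia library 2 (0.95, adjusted p = 0.0590). In leukemia the mu-class gene Gstm5 fell from 7.92 ± 2.98 RPKM in mock to 1.90 ± 0.264 (-1.58, adjusted p = 0.00829), but did not pass without leukemia library 2 (-1.49, adjusted p = 0.0557). Gstm7, also of the mu class, was at 1.39 and 1.79 RPKM in the mock pair, 1.73 and 2.25 in the preleukemia pair and 0.0297 and 0.159 in the leukemia pair, and passed as lower in leukemia than in mock (-1.24, adjusted p = 0.00390) and than in preleukemia (-1.45, adjusted p = 0.00379). Its leukemia values rest on few reads, as 3 reads on 1 kb came to 0.143 and 0.153 RPKM in those libraries. Ltc4s, leukotriene C4 synthase, a relative of the microsomal enzymes, rose from 0.413 ± 0.394 RPKM in mock to 2.93 ± 0.334 in leukemia (1.5, adjusted p = 0.00479). Its value in mock library 2, 0.134 RPKM, lay below that of 3 reads on 1 kb there (0.148).

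Of the 13 tested genes of the Nrf2 list, 4 rose and 1 fell in preleukemia, 2 rose and 2 fell in leukemia against mock, and 1 rose and 5 fell from preleukemia to leukemia. Over all genes 13.5% rose and 6.02% fell in the first comparison, 12.1% and 13.5% in the second, and 5.27% and 13% in the third, so the counts of leukemia against mock lay near the share of all genes. All 4 that rose in preleukemia belong to the pentose phosphate pathway: G6pdx and Pgd, the dehydrogenases that make the NADPH used by Gsr, and Taldo1 and Tkt, which rearrange its sugars. These 4 are named after their values were seen. G6pdx was at 18.9 and 14.2 RPKM in the mock pair, 31.7 and 40.7 in the preleukemia pair and 13.9 and 16.8 in the leukemia pair, so that both preleukemia libraries stood above the other 4. It rose by 1.08 on the log2 scale (limma adjusted p = 0.0104) and fell by 1.18 from preleukemia to leukemia (adjusted p = 0.00833). Pgd was at 23.3 and 19.8, 41.0 and 52.3, and 35.5 and 39.3 RPKM in the same order, and was higher than mock in both Evi1 groups (1.07 and 0.77, adjusted p = 0.00513 and 0.0119). Taldo1 and Tkt rose by 0.43 and 0.47 in preleukemia (adjusted p = 0.0275 and 0.0293). Srxn1, sulfiredoxin, which repairs overoxidised peroxiredoxins, was at 1.33 and 1.98 RPKM in the mock pair, 3.56 and 2.77 in the preleukemia pair and 0.253 and 0.469 in the leukemia pair. It fell by 1.61 from preleukemia to leukemia (limma adjusted p = 0.00378). Nqo1, a quinone reductase, was at 3.72 and 1.75, 5.21 and 3.69, and 0.644 and 1.25 RPKM in the same order. Nqo1 fell by 1.49 from preleukemia to leukemia (adjusted p = 0.0181), which missed the threshold without preleukemia library 1 (-1.29, adjusted p = 0.108) or 2 (-1.69, adjusted p = 0.0736), or leukemia library 1 (-1.27, adjusted p = 0.120). Both had the order of Gclm, Gstm1 and Mgst1, highest in preleukemia and lowest in leukemia, though the mock and preleukemia libraries of Nqo1 overlapped. The stem and progenitor sums had this order too, and so had the group means of Mpo, Elane, Prtn3 and Ctsg in that list. Those of Kit, Cd34, Gata2, Myb, Spi1 and Cebpa did not. The summed megakaryocyte and platelet markers also had this order. They were at 32.7 and 32.8 RPKM in the mock pair, 73.4 and 54.3 in the preleukemia pair and 3.64 and 12.4 in the leukemia pair. Of 7 tested genes of the megakaryocyte and platelet list, 3 rose and 0 fell from mock to preleukemia, and 0 rose and 6 fell from there to leukemia. Gp6 was listed at 0 in all 6 libraries and Gp1bb in both leukemia libraries. The part of these cells in the levels of Gclm, Gstm1, Mgst1, Srxn1 and Nqo1 was not tested. Nfe2l2 itself, chosen after its values were seen, had a mean of 20.7 RPKM in the mock pair, 23.0 in the preleukemia pair and 19.5 in the leukemia pair, and passed in no comparison (adjusted p from 0.440 to 0.841).

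The genes whose pattern lay closest to 2 of the 10 genes were ranked by the distance between centred profiles of log2(RPKM + 1) over the 6 libraries, among 10126 named genes. For Mgst2, which had the smallest p over the 3 groups, they were Lmo1 (distance 0.34), Clec12a (0.35) and Rab11fip4 (0.39). Lmo1, which encodes a LIM-domain protein, was at 4.02 and 5.68 RPKM in the mock libraries, 18.2 and 19.8 in the preleukemia libraries and 15.5 and 17.2 in the leukemia libraries. For Gpx1, which had the highest mean, they were Nucb1 (0.11), Adprm (0.13) and Ufsp2 (0.15), of which Nucb1, a calcium-binding protein of the Golgi, was at 47.7 and 37.1, 67.1 and 62.3, and 45.7 and 45.1 RPKM. With 6 libraries in 3 groups such profiles describe likeness only.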

How the data were processed

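RNA sequencing of 6 libraries gave 1 table of 38924 genes by 6 libraries. CASAVA 1.8.2 and GRCm38 appear, without their roles, in the submitters' processing notes; no aligner, counter or annotation is stated in the labels. The values deposited by the authors are RPKM, a unit read from the numbers themselves: with exon lengths from GENCODE M21, 64.1% to 65.8% of values under 20 reads lay within 0.02 of a whole read, which also gave the library totals.

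Values were tested as log2(RPKM + 1) with limma 3.58.1 in R 4.3.3, for the 10958 genes that reached 1 RPKM in 2 or more libraries. The fit held 3 group means, with a trend of the spread on the level (3 residual and 3.70 prior degrees of freedom). Tests were two-sided, with p-values adjusted by the Benjamini-Hochberg method over all genes within a comparison at 0.05. This scale understates changes of low genes, and folds are ratios of mean RPKM. The script was tested on simulated data. The genes and lists were chosen with earlier results of these data known. The text names the 10 genes, up to 4 other pathway genes per comparison with the largest change among those that passed, the 3 nearest profiles of 2 of the 10 genes, and Mecom; exceptions are marked. The labels give no batch or date. Alternatives changed the pseudocount, filter, scaling, spread, libraries and block.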

Additional observations from a re-analysis of the deposited data

How the results depend on the processing

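With 2 libraries a group, calls near the threshold depended on single libraries and on the estimate of the spread, and the cause was not tested further. The number of glutathione genes called, 5 in preleukemia against mock, 4 in leukemia against mock and 4 in leukemia against preleukemia, was 3, 2 and 2 with no filter on low values. With array weights it was 2 in leukemia against mock and 7 in leukemia against preleukemia, and 2 in leukemia against mock in a fit of the 4 libraries compared. When each library was left out in turn, with a lone library assumed to vary like the others, the ranges were 2 to 7, 1 to 5 and 1 to 6. Of the other pathway genes 12, 15 and 19 were called, with ranges of 4 to 22, 6 to 19 and 4 to 22, and 8 of them in leukemia against mock when at least 5 RPKM was required, which tests fewer genes. Over all genes 2140, 2809 and 2006 were called, with ranges of 520 to 3873, 1046 to 3848 and 430 to 3449. Array weights gave 1421 in the first comparison and 3786 in the third, the fit of 4 libraries 1374 and 3428, and no filter 1302 in the third.

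Directions turned for differences that had not passed. Gss turned to -0.028, 0.0096 and 0.038 in the 3 comparisons after the scaling by trimmed means and to -0.12, 0.031 and 0.15 after quantile normalization, and Gpx4 in preleukemia against mock to -0.031 and -0.038. With libraries left out in turn, Gss ranged from -0.013 to 0.043, -0.013 to 0.0049 and -0.047 to 0.0091, Gpx4 in preleukemia against mock from -0.0057 to 0.10, Gstp1 there from -0.081 to 0.49, and Gpx1 in leukemia against mock from -0.0085 to 0.39. Of the alternative values for the 10 genes, 437 kept direction and side of the threshold, 35 lost the threshold, 20 gained it and 15 turned.

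The titles share the numbers 1 and 2 across groups but do not say that a number marks a shared batch. Deviations of same-numbered libraries correlated at 0.12 (mock and preleukemia), 0.01 (mock and leukemia) and 0.18 (preleukemia and leukemia), so the numbers were not taken as pairs, although every value was positive. With 2 libraries a group, any positive value makes each library correlate best with its own number, so that is no separate evidence. With the replicate number as a block, 6, 4 and 5 glutathione genes, 13, 15 and 18 other pathway genes and 2118, 2932 and 2060 genes over all were called, and Mgst1 in preleukemia against mock (adjusted p = 0.0495) and Gpx1 in leukemia against preleukemia (adjusted p = 0.0400) passed.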

Other observations

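Cysteine supply and glutathione turnover had fewer tested genes, 8 of 17. In preleukemia against mock 1 rose and 0 fell, and in leukemia against mock 1 rose and 2 fell, as did 2 from preleukemia to leukemia with 0 higher. Over all genes 13.5% rose and 6.02% fell in the first comparison, 12.1% and 13.5% in the second, and 5.27% and 13% in the third. Counts out of 8 genes are too small to be told from these shares. The genes of this paragraph were chosen after their values were seen. Cndp2, a dipeptidase that acts on cysteinylglycine, was at 9.82 and 9.39 RPKM in the mock pair, 10.3 and 10.4 in the preleukemia pair and 4.20 and 3.67 in the leukemia pair, and both leukemia libraries lay below the other 4 (-1.10 against mock, limma adjusted p = 0.00137). Cbs, which makes cystathionine on the route to cysteine, was at 0.0554 and 0.0888 RPKM in the mock pair, 0.901 and 1.51 in the preleukemia pair and 1.07 and 1.10 in the leukemia pair, and passed as higher in both Evi1 groups (adjusted p = 0.0119 and 0.0117). Both mock values of Cbs lay below those of 3 reads on 1 kb, 0.139 and 0.148 RPKM. Slc3a2, the heavy chain of the cystine transporter and of other amino acid transporters, was at 43.3 and 88.9 RPKM in the mock libraries and at 27.2 to 36.3 in the other 4, and passed in no comparison (adjusted p = 0.0635, 0.0705 and 0.861). Slc7a11, the light chain of the cystine transporter, was at 0.0699 to 1.51 RPKM over all libraries and did not reach the level required for testing.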
